A study of Mus musculus with 3 samples.

Results

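Immunoglobulin genes were examined in mouse regulatory T cells by sequencing of polyA-selected RNA. The set was chosen by annotation and by measured level. It takes every gene of the GENCODE M21 annotation whose type begins IG_ and whose name begins Igh, Igk or Igl, provided that its expected counts (estimated reads) sum to at least 10 over the 3 libraries. This left 57 of the 395 immunoglobulin rows, among 55536 annotated genes. Of the rest, 218 rows had no count in any library and 120 were above 0 but under the sum. The 57 members are 44 variable (V) genes, 2 joining (J) segments and 11 constant genes, and none of the 20 diversity (D) segments. Just inside the sum lay Ighv6-4 at 10, Igkv6-23 at 10.3 and Igkv3-5 at 10.4 counts, and just outside it Igkv3-2 at 9.31, Igkv4-55 at 9.29 and Igkv4-57 at 9.26.

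Per the labels, the cells were inflammation-experienced regulatory T cells, a primary cell population from 1 male adult mouse of 16 weeks. The strain is named Foxp3GFP-DTRCD4CreERT2R26tdTomato, so all libraries carry a GFP and diphtheria toxin receptor allele of Foxp3, a tamoxifen-dependent Cre driven from CD4 and a tdTomato reporter. There is a single group: technical replicates 1, 2 and 3 of biological replicate 1, called libraries 1, 2 and 3 here. The labels used here name no agent, dose or gate, and there is no control group, so the only comparison is between libraries. Every SD below measures the spread between these 3 libraries alone. Each chi-square p-value measures how far the counts of these libraries depart from independent counting of reads. Reads can be copies of each other, which can make such a p-value too small. The labels call the libraries technical replicates, but do not say whether they were made from the same cells. The V gene counts below differ widely between the libraries.

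An immunoglobulin is built of heavy chains and kappa or lambda light chains. A developing B cell joins 1 V, 1 J and, for the heavy chain, 1 D segment, so that all its descendants carry the same pair of V genes. The joined V exon is spliced to a constant gene. Ighm and Ighd serve naive B cells, class switching replaces them with an Ighg, Ighe or Igha gene, and a choice of 3′ exons yields a membrane receptor or a secreted antibody. Constant genes are also transcribed from unrearranged loci without a V segment. T cells build their own receptor by rearranging T cell receptor loci.

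The 3 libraries held 20942875, 18402479 and 17494966 expected counts over annotated genes. All 6 fixed regulatory T cell markers were present, led by Izumo1r, Tnfrsf18 and Ikzf2, with Foxp3 at 77.6, 86.2 and 59.2 TPM (a level per transcript length and library depth) in libraries 1, 2 and 3. Cd3e, a subunit of the T cell receptor complex, stood at 1243, 1273 and 1461 TPM. A Pearson chi-square test against Poisson counting, with library sizes scaled by edgeR and Benjamini-Hochberg adjustment, called 63.9% of 14877 genes tested different between libraries, so a call alone is common here. Genes held almost wholly by 1 library were rare: 0.356% of tested genes had at least 80% of their depth-scaled count in 1 library, a limit set after the values were seen. The members make up 0.181%, 0.157% and 0.175% of the counts of libraries 1, 2 and 3.

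The V genes that lead their library are shown first, because the libraries differ most in which V gene was counted. The sequences are 298 to 300 bases of the mm10 exon that carries the V domain, from the M21 transcripts, 5′ to 3′ in the gene's own direction (the minus strand for all 6), with the last in-frame cysteine codon in capitals. That cysteine marks the start of the third hypervariable loop, where V meets D or J. Positions are chr6:69900424-69900721 for Igkv5-39, chr6:70171809-70172108 for Igkv8-27, chr6:70314895-70315194 for Igkv8-21, chr12:114048241-114048540 for Ighv11-2, chr12:115208095-115208394 for Ighv1-55 and chr12:114391712-114392011 for Ighv6-3.
Igkv5-39: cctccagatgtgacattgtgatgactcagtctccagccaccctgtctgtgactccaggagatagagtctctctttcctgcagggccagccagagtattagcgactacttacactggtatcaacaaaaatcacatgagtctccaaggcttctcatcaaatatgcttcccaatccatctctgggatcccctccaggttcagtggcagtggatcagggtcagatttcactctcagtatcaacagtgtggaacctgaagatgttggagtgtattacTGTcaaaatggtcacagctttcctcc
Igkv8-27: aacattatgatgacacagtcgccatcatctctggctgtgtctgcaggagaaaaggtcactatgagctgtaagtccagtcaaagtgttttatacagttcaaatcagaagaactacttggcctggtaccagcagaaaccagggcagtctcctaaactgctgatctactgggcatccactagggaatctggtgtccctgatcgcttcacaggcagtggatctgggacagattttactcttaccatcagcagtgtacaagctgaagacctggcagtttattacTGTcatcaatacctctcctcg
Igkv8-21: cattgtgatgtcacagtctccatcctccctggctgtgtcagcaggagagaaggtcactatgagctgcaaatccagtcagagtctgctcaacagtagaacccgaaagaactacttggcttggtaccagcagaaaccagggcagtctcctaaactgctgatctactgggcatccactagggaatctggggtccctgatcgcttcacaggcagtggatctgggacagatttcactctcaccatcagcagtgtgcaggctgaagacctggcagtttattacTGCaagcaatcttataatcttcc
Ighv11-2: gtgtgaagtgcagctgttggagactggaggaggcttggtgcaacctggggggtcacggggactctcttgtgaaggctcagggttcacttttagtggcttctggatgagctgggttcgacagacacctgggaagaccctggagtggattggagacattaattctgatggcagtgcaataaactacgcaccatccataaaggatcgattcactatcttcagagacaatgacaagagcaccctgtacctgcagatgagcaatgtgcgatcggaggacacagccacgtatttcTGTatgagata
Ighv1-55: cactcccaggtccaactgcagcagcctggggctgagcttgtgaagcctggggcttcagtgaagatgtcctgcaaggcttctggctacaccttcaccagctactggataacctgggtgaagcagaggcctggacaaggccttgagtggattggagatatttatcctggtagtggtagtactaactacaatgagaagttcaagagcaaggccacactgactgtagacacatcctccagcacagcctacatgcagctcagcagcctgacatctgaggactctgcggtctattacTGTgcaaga
Ighv6-3: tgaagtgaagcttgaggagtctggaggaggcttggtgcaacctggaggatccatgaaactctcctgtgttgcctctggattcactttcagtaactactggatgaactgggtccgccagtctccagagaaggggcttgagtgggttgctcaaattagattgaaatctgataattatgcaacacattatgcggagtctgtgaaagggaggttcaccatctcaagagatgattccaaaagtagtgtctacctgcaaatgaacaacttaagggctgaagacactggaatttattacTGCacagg

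Ighm, the constant gene of the mu heavy chain (chromosome 12, 113418558 to 113422730, minus strand, mm10), dominated the set. Its level was 1708, 1301 and 1448 TPM in libraries 1, 2 and 3, from 35462, 24636 and 27469 counts. It ranked 68 among 55499 genes outside the mitochondrion by mean TPM. Library 1 was highest and library 2 lowest, and the difference was called (chi-square test, Benjamini-Hochberg adjusted p = 2.51e-208), although the highest library held only 37.8% of the scaled count. Ighd, the delta constant gene that naive B cells splice from the same primary transcript, stood at 22.2, 21.6 and 20.7 TPM. The libraries were close and no difference was called for Ighd (chi-square test, adjusted p = 0.315).

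The switched heavy chain genes behaved differently from library to library. Igha, the constant gene of IgA (chromosome 12, 113254830 to 113260236, minus strand), was counted 59, 1176 and 31 times, or 3.77, 92.8 and 1.62 TPM. Library 2 held 93.3% of its scaled count, with a chi-square of 2147 and an adjusted p below the smallest number the software stores. Ighg2c, an IgG subclass gene (113285325 to 113288932), was counted 2, 7 and 169 times, or 0.14, 0.55 and 13.2 TPM. Library 3 held 95.1% of Ighg2c (chi-square test, adjusted p = 7.12e-70). So library 2 stood apart for IgA and library 3 for IgG2c, while Ighm was high in all 3.

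The other switched genes were low. Ighg3 stood at 5.12, 4.57 and 5.21 TPM, with libraries close to each other (chi-square test, adjusted p = 0.588). Ighg2b was highest in library 1, at 1.11 TPM against 0.39 and 0.20 in libraries 2 and 3 (chi-square test, adjusted p = 0.00234). Ighg1 had 12, 4 and 7 counts, too few for the test. Ighe, the IgE gene and no member, had 3 counts in library 1 and 0 in the other libraries. Of the 11 constant members, 10 were tested and 7 were called, against the background of 63.9%. At least 80% of the scaled count came from 1 library for 2 of the 10, Igha and Ighg2c, against 0.356%. Ighg2c, with 2 and 7 counts in libraries 1 and 2, entered the set through library 3 alone. The limit of 80% was set after the values were seen, so the 2 are a description.

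Light chains were mainly kappa. Igkc, the only kappa constant gene (chromosome 6, 70726435 to 70726966, plus strand), stood at 164, 289 and 258 TPM from 1033, 1673 and 1491 counts. Igkc was lowest in library 1, where Ighm was highest (chi-square test, adjusted p = 1.95e-52). The log2 ratio of Ighm to Igkc, on TPM plus 1, was 3.37, 2.17 and 2.48, or 2.67 ± 0.62 (SD, n = 3 libraries). Ighm exceeded Igkc in every library.

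Lambda constant genes (chromosome 16) were lower. Iglc3 stood at 22.3, 11.95 and 10.4 TPM, highest in library 1 (chi-square test, adjusted p = 6.66e-06). Iglc2 stood at 8.59, 12.9 and 15.2 TPM, highest in library 3 (chi-square test, adjusted p = 0.0217). Iglc1 stood at 4.93, 3.92 and 7.63 TPM and was not called (chi-square test, adjusted p = 0.0515), and Iglc4 had no count. The calls at these levels were not firm. By the same test the call of Iglc3 was lost without library 1 (adjusted p = 0.553). That of Iglc2 was lost without library 1 or 3 (0.219 and 0.295) and in the second gene table (0.0928). Iglc1 was called with DESeq2 size factors, with library totals or without library 1 (adjusted p = 0.0466, 0.0259 and 0.0329). Iglc2 and Iglc3 moved in opposite directions between libraries 1 and 3. Reads were shared between near-identical lambda sequences: only 77.7% of the 50-base windows of Iglc3 and 92.3% of those of Iglc2 occur in no other annotated gene, so their split is uncertain. Igkc made up 82.1%, 90.95% and 88.6% of the light chain constant TPM, or 87.2 ± 4.58% (SD, n = 3 libraries).

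**Figure D1:**
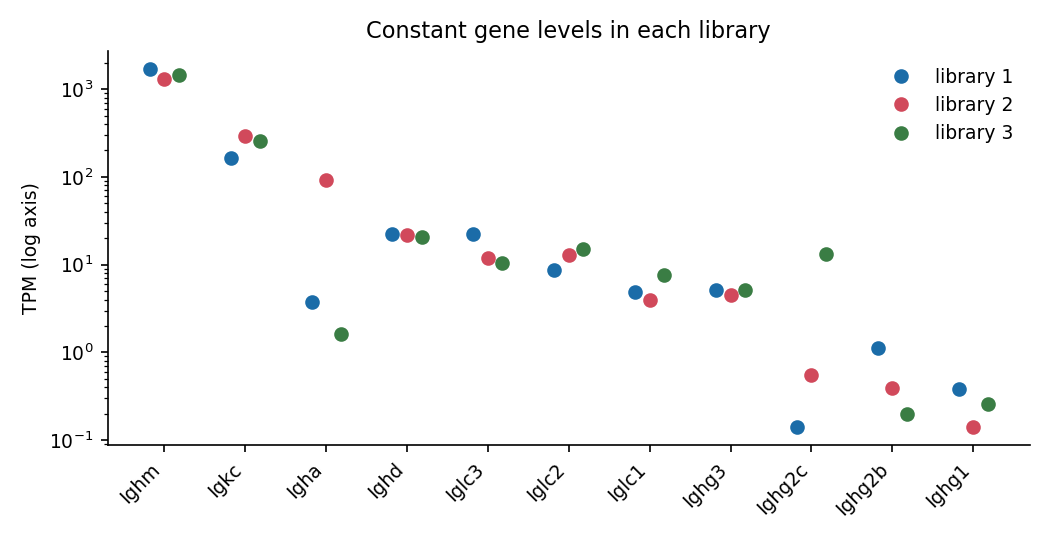
Level of each constant member in TPM (log axis), 1 point per library. Ighm lies at 1301 TPM or above in each library, whereas Igha lies at 92.8 TPM in library 2 against 3.77 and 1.62 in the others, and Ighg2c at 13.2 TPM in library 3 against 0.14 and 0.55.

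Which 3′ exons were counted differed between isotypes. The coding ends of both forms of Ighm and of the secreted form of Igha are printed, because the transcript tables assign reads to a form by them and by the untranslated parts behind them. Each line starts with 30 shared bases in lower case, and the capitals are the coding bases of that form alone. The secreted tails lie at chr12:113420870-113420958 and chr12:113258771-113258859 on the minus strand, and the membrane tail of Ighm is spliced from separate exons.
Ighm secreted: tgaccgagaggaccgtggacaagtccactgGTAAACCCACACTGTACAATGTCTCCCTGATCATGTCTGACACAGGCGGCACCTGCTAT
Ighm membrane: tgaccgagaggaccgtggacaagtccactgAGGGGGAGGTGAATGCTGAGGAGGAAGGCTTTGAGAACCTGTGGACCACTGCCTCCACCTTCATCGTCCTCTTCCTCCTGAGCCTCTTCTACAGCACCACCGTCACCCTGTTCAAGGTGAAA
Igha secreted: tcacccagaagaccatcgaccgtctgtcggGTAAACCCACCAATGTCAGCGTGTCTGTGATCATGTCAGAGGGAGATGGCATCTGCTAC

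Ighm was mostly of membrane form, with 73.3%, 66.7% and 68.8% of its TPM in libraries 1, 2 and 3, or 69.6 ± 3.37% (SD, n = 3 libraries). Ighd was also mainly membrane form, at 100%, 86.8% and 89.1%. Igha was mainly secreted form in library 2, where 1162 of its 1176 counts, 99.5% of its TPM, went to the secreted transcript. The secreted share of Igha was 89.7% in library 1 and 61.7% in library 3, which had only 59 and 31 counts. In counts, the membrane form of Igha was near level, at 12.8, 13.9 and 18.5, while the secreted form had 46.2, 1162 and 12.5. Ighg2c in library 3 was likewise 92.8% secreted form, from 156 of 169 counts. Ighg3 was 90.2%, 92.3% and 87.3% secreted form, at a level for which no difference between libraries was called. Ighg1, with 12, 4 and 7 counts, was instead 100%, 100% and 88.5% membrane form. Ighg2b, with 23.5, 6 and 6.11 counts, was 61.6%, 84.6% and 0% secreted form, so the lowest switched genes gave no common picture. These shares are the deposited estimates of a model that splits reads between transcripts, and no test was made of them.

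**Figure D2:**
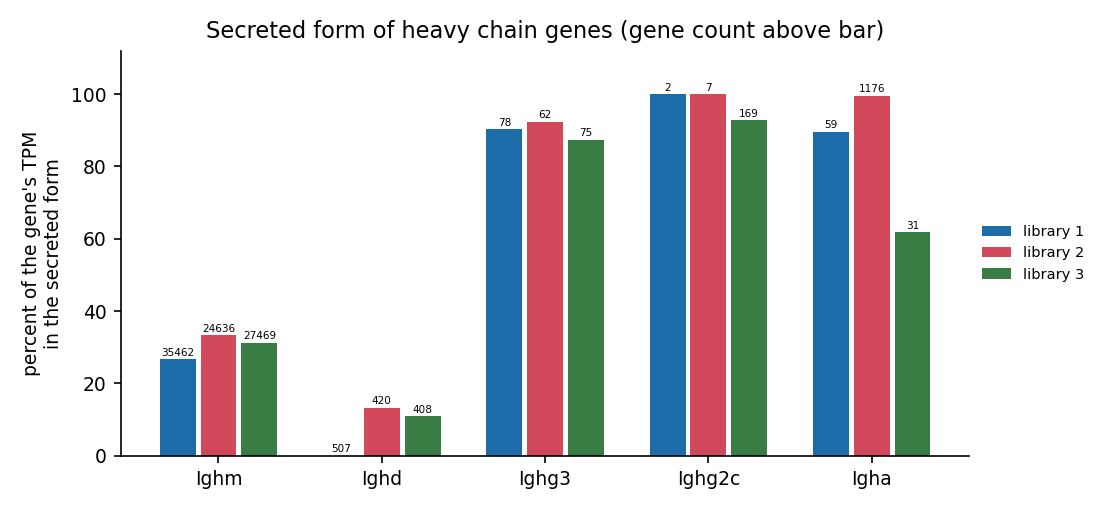
Percent of a heavy chain gene's TPM in its secreted transcript, 1 bar per library, with the gene's count printed above the bar. Ighm and Ighd lie at 33.3% or below, and of the switched genes drawn (Ighg1 and Ighg2b, at 23.5 counts or fewer, are not) Ighg3, Ighg2c and Igha lie at 61.7% or above in every library, with very few counts behind Ighg2c in libraries 1 and 2.

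The J members were Ighj1 and Ighj4, the segments that join to D. They are short, as their mm10 sequences show (chr12:113429781-113429833 and chr12:113428514-113428567, minus strand), with the bases that open the conserved tryptophan-glycine motif in capitals.
Ighj1: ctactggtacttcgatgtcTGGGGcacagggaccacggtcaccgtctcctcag
Ighj4: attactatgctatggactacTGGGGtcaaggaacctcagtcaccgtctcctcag
Ighj1 had 22, 6 and 18 counts in libraries 1, 2 and 3 and was called (chi-square test, adjusted p = 0.0338). That call was lost without library 2 and with no filter on counts (adjusted p = 0.836 and 0.066). Ighj4 had 1, 3 and 7 counts. At 53 and 54 bases they leave 4 and 5 start positions for a 50-base read, so their TPM cannot be set beside that of other genes and is not given. In the second deposited gene table, whole-number counts on the GENCODE M4 annotation, Ighj1 had 119, 93 and 109 and Ighj4 had 49, 40 and 48 counts. There Ighj2 had 58, 30 and 48 and Ighj3 had 44, 38 and 41 counts, all 4 J segments being lowest in library 2. In that table no J member was called. Whether the limit met by Ighm there (below) also holds for the J segments was not examined, so these counts and their order are uncertain.

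V genes gave the widest differences. The 44 V members are 18 of 185 heavy chain rows, 24 of 160 kappa rows and 2 of 3 lambda rows, with summed counts from 10 to 201. They lie along chromosome 12 from 113879096 to 115920712, chromosome 6 from 67555497 to 70672377 and chromosome 16 from 19085017 to 19241690 (mm10). Of the 44, 24 were counted in all 3 libraries, 13 in 2 and 7 in 1 library. Only 8 reached 1 TPM in every library. Those 8 include Igkv1-117, Igkv14-111, Igkv19-93 and Igkv1-135, which were picked here after their values were seen as examples of evenly counted V genes.

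Among heavy chain V genes, each library was led by another gene. Ighv11-2, known for its use by B-1 cells, had 0, 105 and 0 counts in libraries 1, 2 and 3 (chi-square test, adjusted p = 6.16e-48). A count of 0 allows a level of up to 0.559 TPM in library 1 and 0.608 in library 3, against 21.3 TPM in library 2. Ighv1-55, of the large Ighv1 family, had 76.1, 2.47 and 0 counts and so belonged almost wholly to library 1 (chi-square test, adjusted p = 8.29e-28). Ighv6-3 had 7.15, 4.67 and 46.0 counts and led library 3 (chi-square test, adjusted p = 4.94e-13). Ighv1-81 had 3.38, 63.0 and 0 counts, and Ighv4-1 had 22, 49 and 0 (adjusted p = 2.51e-26 and 1.05e-11 in the same chi-square test), so both were highest in library 2 and absent from the counts of library 3. Ighv11-2, Ighv1-55 and Ighv1-81 entered the set and the test through 1 library alone, so their p-values are a description of genes that passed. Ighv6-3 and Ighv4-1 had too few counts for the test without their highest library. The leading gene held 39.0% of all heavy chain V counts in library 1 (Ighv1-55, 95% exact Clopper-Pearson interval 32.1 to 46.2%), 28.9% in library 2 (Ighv11-2, 24.2 to 33.8%) and 19.2% in library 3 (Ighv6-3, 14.4 to 24.7%). Next came Ighv4-1 at 11.3%, Ighv1-81 at 17.3% and Ighv1-9 at 17.1% in libraries 1, 2 and 3. The share of Ighv1-9 lies inside the interval of Ighv6-3, so that lead is uncertain. Each interval is for a gene picked as the highest of the same counts. The intervals cover counting error alone, and reads can be copies of each other.

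Kappa V genes showed the same arrangement with other members. Igkv8-27 had 2.47, 0 and 199 counts (chi-square test, adjusted p = 2.32e-89), or 0.76, 0 and 57.6 TPM, the highest V level in any library. Igkv8-21 had 3.76, 127 and 1.78 counts (chi-square test, adjusted p = 6.50e-53). Igkv10-96 had 4, 103 and 2 counts and Igkv16-104 had 1, 60 and 0 (adjusted p = 4.93e-42 and 1.40e-26 in the same chi-square test). Igkv8-27 thus belonged to library 3 and the latter 3 genes to library 2. Each of these genes entered the set and the test through that library alone, so its p-value is a description of a gene that passed there. Igkv5-39 was shared by libraries 1 and 3 with 127 and 74 counts and had 0 in library 2, which allows up to 0.935 TPM (chi-square test, adjusted p = 2.45e-23). Igkv1-110 had 47.3, 9.48 and 11.5 counts, highest in library 1 but present in all (chi-square test, adjusted p = 2.26e-07, and 0.619 without library 1). The leading kappa V gene held 38.5% of kappa V counts in library 1 (Igkv5-39, exact interval 33.2 to 43.97%), 26.0% in library 2 (Igkv8-21, 22.1 to 30.04%) and 36.3% in library 3 (Igkv8-27, 32.3 to 40.5%).

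Of the lambda V genes, Iglv1, the V gene most used in mouse lambda chains, had 35.6, 12 and 7 counts (chi-square test, adjusted p = 5.11e-05). Iglv3 had 4, 0 and 7 counts and was too low for the test. Iglv1 was highest in library 1, as was the constant gene Iglc3.

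**Figure D3:**
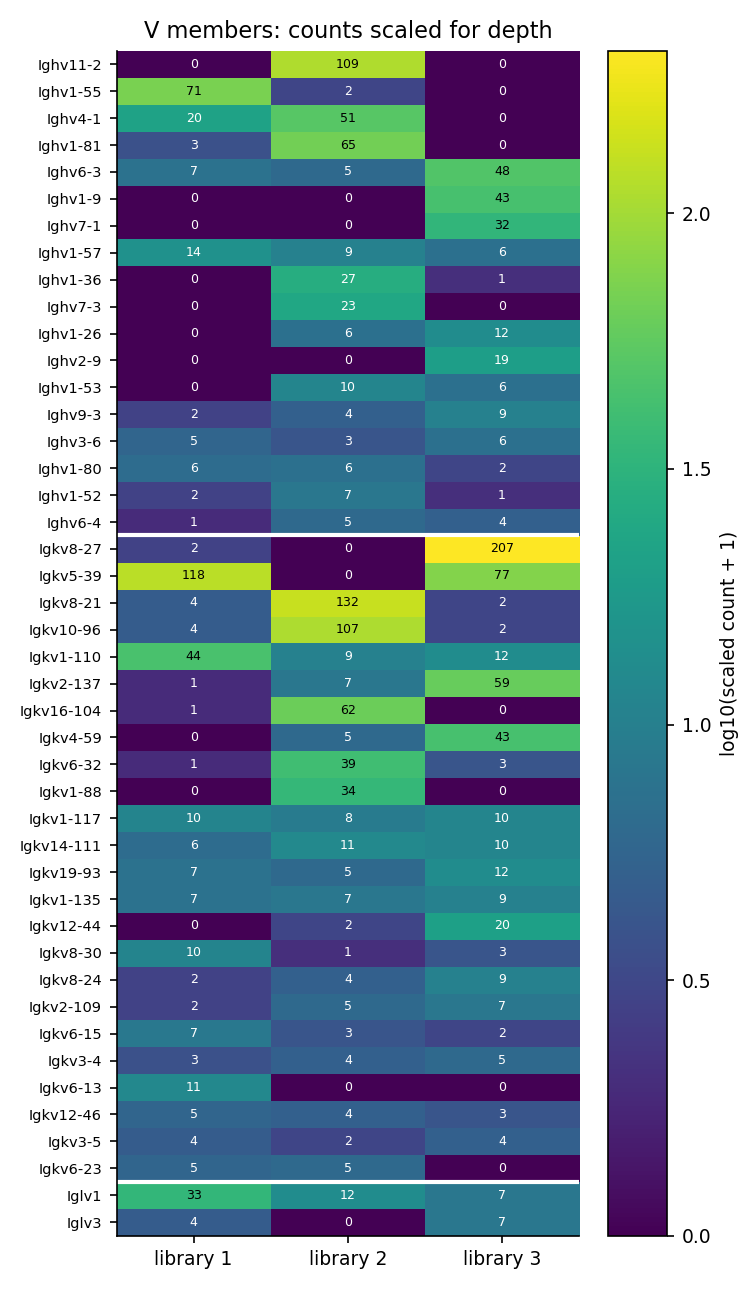
Depth-scaled counts of the 44 V members (rows, by locus and summed count, white lines between heavy, kappa and lambda) in the 3 libraries, coloured by log10 of the count plus 1 and printed in each cell. The leading heavy and kappa cells fall in different rows in each library. They are Ighv1-55 and Igkv5-39 in library 1, Ighv11-2 and Igkv8-21 in library 2, and Ighv6-3 and Igkv8-27 in library 3. Igkv5-39 is also strong in library 3, at 77 scaled counts.

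Of the 44 V members 19 had a mean count of at least 10 and were tested, and 18 of these were called, against 63.9% of all genes. The exception was Ighv1-57, a V pseudogene, with 15, 9 and 6 counts (chi-square test, adjusted p = 0.271). At least 80% of the scaled count came from 1 library for 14 of the 19, against 0.356% of all genes tested. A gene entered the set and the test by its sum, so it could enter through 1 library alone: 13 of these 14 had under 10 counts in the other libraries together, as had 44 of the 53 such genes among all tested. The count is therefore a description of the genes that passed. By locus these were 6 of 8 heavy chain and 8 of 10 kappa V genes, and by library 1 in library 1, 7 in library 2 and 6 in library 3. The highest library held a median of 94.9% of the scaled count of the tested V members, 44.3% for constant members and 38.5% for all genes tested. The median of the V members includes the genes that entered through 1 library alone, so it too is a description of the genes that passed. T cell receptor V genes, which are rearranged in the T cells themselves, gave a median of 38.9%, and 2 of the 122 tested reached 80% in 1 library. Of those 122, 53 were called (43.4%). The difference between immunoglobulin and T cell receptor V genes was not tested, and the groups were not matched for count.

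**Figure D4:**
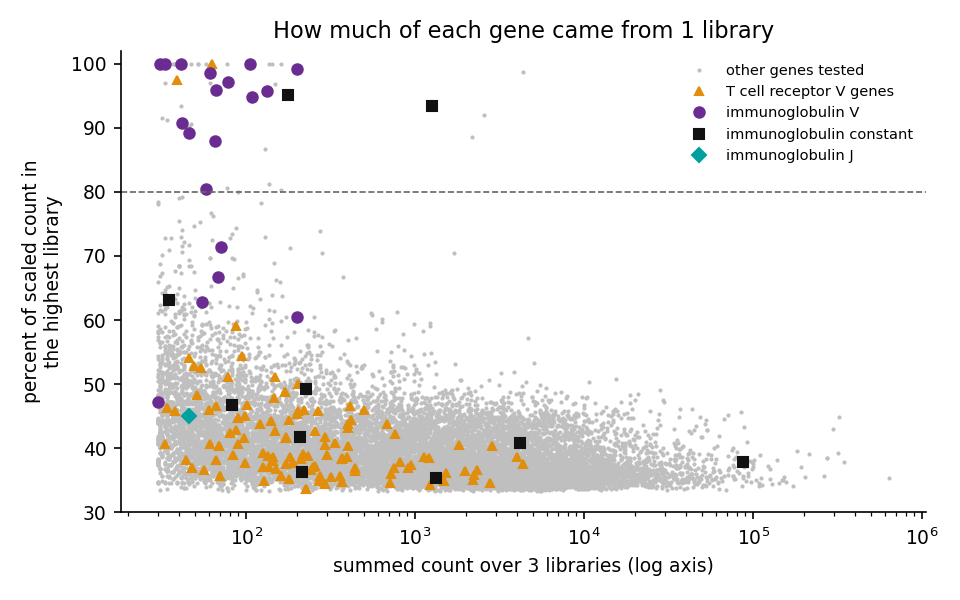
Percent of the depth-scaled count held by the highest of 3 libraries against the summed count (log axis) for every gene tested, with immunoglobulin V, J and constant members and T cell receptor V genes marked. Above the dashed line at 80% lie 14 of 19 immunoglobulin V genes, the constant genes Igha and Ighg2c, and 2 of 122 T cell receptor V genes.

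V families contributed unevenly. The Ighv1 family, the largest of the heavy chain with 93 rows, gave 9 members and 139, 151 and 103 counts in libraries 1, 2 and 3. Its total was thus spread over the libraries, although Ighv1-55 and Ighv1-81 were each held almost wholly by 1 library. The Igkv8 family gave 4 members of 12 rows and 19.7, 135 and 217 counts. The Igkv4 family, with 33 rows, gave 1 member, Igkv4-59.

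Reads cannot always be assigned to 1 V gene. A median of 79.3% of the 50-base windows of a V member occurred in no other annotated gene, from 25.7% in Igkv4-59 to 100% in 11 members. The model's own posterior SD of a count was at most 3.44 counts, for Igkv4-59. Igkv4-59, picked here for its low share of unique windows, had 0, 5.18 and 41.2 counts in the first table and 0, 1 and 3 in the second, so its level is uncertain. The closest pair of members was Igkv1-110 and Igkv1-117, with 303 of 313 bases of the V exon identical (96.8%), printed below up to base 300 with the differing bases in capitals (chr6:68270955-68271254 and chr6:68121515-68121814, plus strand).
Igkv1-110: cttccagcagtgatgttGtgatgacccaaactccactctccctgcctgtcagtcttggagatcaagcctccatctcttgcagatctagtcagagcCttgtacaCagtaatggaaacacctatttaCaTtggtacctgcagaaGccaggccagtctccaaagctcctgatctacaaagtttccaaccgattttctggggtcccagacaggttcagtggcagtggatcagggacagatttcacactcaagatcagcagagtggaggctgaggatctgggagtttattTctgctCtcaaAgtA
Igkv1-117: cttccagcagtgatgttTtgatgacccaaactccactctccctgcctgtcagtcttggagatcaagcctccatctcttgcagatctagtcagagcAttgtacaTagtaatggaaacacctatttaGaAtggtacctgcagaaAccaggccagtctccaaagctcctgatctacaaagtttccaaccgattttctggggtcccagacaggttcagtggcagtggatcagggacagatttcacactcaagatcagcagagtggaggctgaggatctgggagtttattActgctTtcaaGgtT
Igkv1-117 had a near even 10, 8 and 10 depth-scaled counts where Igkv1-110 had 44, 9 and 12. The excess of library 1 was thus assigned to Igkv1-110, with a posterior SD of 3.16 counts there. The second table placed each of these V genes highest in the same library: Igkv8-27 had 2, 0 and 154 counts, Igkv8-21 had 3, 82 and 2, Ighv11-2 had 0, 48 and 0, Ighv6-3 had 4, 5 and 40, and Igkv5-39 had 113, 0 and 71. Ighv1-55 had 36, 0 and 1. The leading gene was the same in both tables for 3 of the 6 leaders. In the second table Ighv1-81 with 49 counts led the heavy V genes of library 2, Igkv10-96 with 91 the kappa V genes of library 2, and Ighv1-9, with 0, 0 and 41 counts in the first table, the heavy V genes of library 3 with 50.

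Per length, V signal was a small part of the heavy chain signal and a large part of the kappa signal. The summed TPM of heavy V members was 31.2, 79.0 and 50.1 against 1740, 1421 and 1489 for heavy constant members, a ratio of 0.0179, 0.0556 and 0.0337 (mean 0.0357 ± 0.0189 SD, n = 3 libraries). For kappa, V members summed to 71.6, 114 and 131 TPM against Igkc at 164, 289 and 258, a ratio of 0.436, 0.395 and 0.508 (mean 0.447 ± 0.0573 SD, n = 3 libraries). The lambda ratio was 0.250, 0.102 and 0.104. Heavy and kappa ratios did not overlap between the loci in any library, and no test was made, since an exact paired test over 3 libraries cannot give a two-sided p below 0.25. On expected counts in place of TPM the ratios were lower, at 0.00753 for heavy and 0.284 for kappa chains. The minimum sum lowers the ratios, and unevenly: members held 71.5%, 88.5% and 76.1% of heavy V counts in libraries 1, 2 and 3. With no minimum sum the heavy ratios were 0.0264, 0.0649 and 0.0444 and the kappa ratios 0.524, 0.439 and 0.5775.

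**Figure D5:**
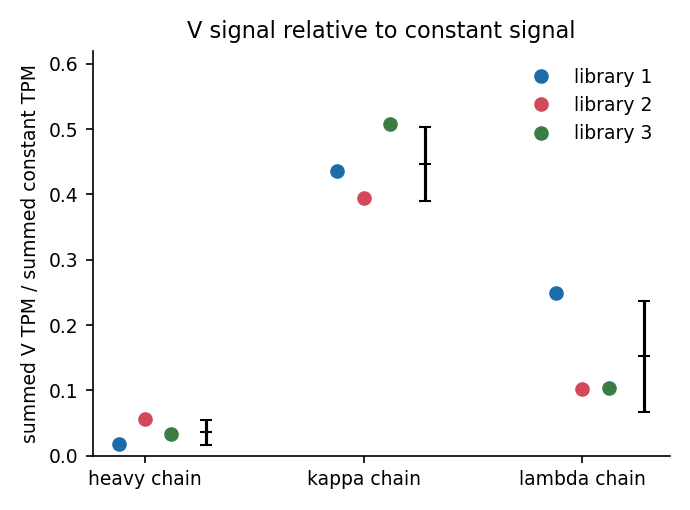
Summed TPM of V members divided by summed TPM of constant members at each locus, 1 point per library, with mean and SD (bars) of the 3 libraries. Heavy chain points lie between 0.0179 and 0.0556 and kappa points between 0.395 and 0.508.

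The second gene table gave a lower Ighm count. Ighm had 3146, 3126 and 3140 counts there, 0.0887, 0.127 and 0.114 of its count in the first table, where the median protein-coding gene had 0.459, 0.465 and 0.440. In that table Ighm stood at 1.67, 1.66 and 1.66 counts per exonic base, and no gene of at least 500 exonic bases passed 1.96. Values of Ighm in the second table were therefore not read as levels. Igkc had 486, 608 and 553 counts there, and whether the limit met by Ighm also holds for Igkc was not examined. Igha, with 52, 864 and 20 counts, and Ighg2c, with 2, 7 and 141, kept the order of libraries found in the first table.

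Genes that act with immunoglobulins were taken from fixed lists. Of 14 B cell genes all were counted, 12 reached 1 TPM in every library and 6 of the 14 were called, all highest in library 3, against 63.9% of all genes. Their summed level was 463, 449 and 479 TPM, most of it from Cd74, the invariant chain of class II antigen presentation, at 354, 339 and 346 TPM. Cd79a and Cd79b, which carry the signal of the membrane receptor, stood at 13.1, 18.4 and 22.1 and at 46.0, 44.7 and 44.6 TPM. Ms4a1, which encodes CD20, stood at 3.68, 3.48 and 5.75 TPM, and Pax5, the B cell identity factor, at 0.35, 0.90 and 0.48. Cd22, a receptor that dampens B cell signals, stood at 20.1, 16.8 and 29.8 TPM. None of the defining B cell markers was at 0, and none held 80% in 1 library.

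Of 12 plasma cell genes 9 were tested and 7 called, 4 of them highest in library 1, 2 in library 2 and 1 in library 3, against 63.9% of all genes. Their summed level was 160, 147 and 83.6 TPM, led by Xbp1, Irf4 and Prdm1, which regulatory T cells also express. Jchain, which links IgM and IgA into polymers, stood at 9.54, 15.0 and 10.5 TPM, highest in library 2 like Igha (chi-square test, adjusted p = 8.24e-06). Sdc1, a plasma cell surface marker, stood at 0.27, 0.28 and 0.05 TPM, and Mzb1, an antibody-folding cofactor, at 0, 1.16 and 3.03. The libraries differed less in Jchain than in Igha, and Mzb1 was highest in library 3. The part of B cell or plasma cell RNA in the immunoglobulin levels was not tested. In bulk RNA, fewer cells of a type and less RNA per cell cannot be told apart.

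The V gene recombinase was at or near 0. Of 8 genes of early B cells and recombination, Rag2 and Igll1 had no count and Rag1 had 0, 0 and 3 counts. The list was led by Vpreb1, Ung and Dntt, each at 2.73 TPM or below in every library, and 2 of the 4 genes tested, Ung and Dntt, were called. The calls in this and the next 3 lists stand against the same 63.9% of all genes tested. Of 10 regulators of immunoglobulin genes 9 were called, 2 highest in library 1, 4 in library 2 and 3 in library 3, led by Ets1, Pou2f2 and Ikzf1, with Ets1 at 473, 465 and 269 TPM. Of 10 genes of B cell receptor signalling 4 were called, and of 9 Fc receptor and transport genes 6 were tested and 2 called. The last list was led by Fcer1g, the shared signalling chain of Fc receptors, at 12.9, 14.3 and 13.4 TPM.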

How the data were processed

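PolyA-selected RNA of 1 cell population was sequenced in 3 technical libraries. The authors deposited, per library, gene and transcript tables of expected counts, TPM and FPKM on mm10 and GENCODE M21. The column names are those RSEM writes, and the transcript table gives each transcript's percent of its gene's TPM, per the file headers. A second deposited gene table holds whole-number counts on GENCODE M4. The aligner, the counting rule and their versions were not given in the sources used here. Per the labels, fragments were sheared on a Covaris instrument. Effective length was length minus 49.

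Rounded expected counts of each gene averaging 10 or more were compared between libraries by a Pearson chi-square statistic (Poisson expectation, 2 degrees of freedom). Library sizes were scaled by TMM (edgeR 4.0.16, R 4.3.3), and p-values were adjusted over all genes tested by Benjamini-Hochberg, with 0.05 as the threshold. The count of 0 was given as a limit of 3 counts, for counting error only. Identity between V exons and shared 50-base windows were computed with Biopython 1.88 from the M21 transcripts. Alternatives were DESeq2 1.42.0 size factors, library totals, other count filters and minimum sums, the second table, FPKM, another pseudocount and leaving out each library.

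Named genes were every constant gene, the J members, the 5 V members per locus with the highest summed count (both members for lambda), the 8 called V members with the largest deviation of 1 library on log2(TPM + 1), the genes beside the sum of 10, and the 3 highest and defining genes of each list. The members and lists were chosen with earlier results of these data known, so a pattern here is a description of these libraries. Immunoglobulin promoters and proteins are not analysed here. A few of the named genes are left out of the report.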

Additional observations from a re-analysis of the deposited data

How the results depend on the processing

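Of 60 alternatives, 51 were scored as keeping the result, 9 as moving it and none as reversing it. The score did not ask for the same V gene: in 5 of the 51 the leading V gene changed, as given below. Its limits were wide: a leading heavy V share of 9.62% that became 19.5% without library 2 was scored as kept. The second table's log2 ratio of Ighm to Igkc, 2.51, is among the 51 but says nothing of stability, as Ighm was not read as a level there. On expected counts scaled for depth alone the log2 ratio of Ighm to Igkc was 4.38, and on expected counts the V to constant ratio was 0.00753 for heavy and 0.284 for kappa chains, since these leave out gene length. With no minimum sum the heavy ratio was 0.0452, scored as kept, and the kappa ratio was 0.514, scored as moved. In the second table, which does not list Iglc1 and Iglc3, the kappa percent was 93.0. This value says nothing of stability, as the lambda genes summed are not the same and Igkc was not examined for the limit met by Ighm. A minimum sum of 30 left 30 members and of 3 gave 104. With a mean count of at least 50, which left 10 members to test, 8 differed, beside 74.9% of all genes. At 2 TPM in place of 1, 10 members were detected in every library, against 18. The number of members called was 24, 18 and 20 without library 1, 2 and 3 (all genes 51.4%, 53.9% and 30.2%), 27 with DESeq2 size factors (64.3%) and 33 with no filter on counts (30.2%). Without library 1, 27 members reached 1 TPM in every library. Without library 2 the leading heavy V gene over the remaining libraries was Ighv1-55, at a mean of 19.5% of heavy V counts per library, where Ighv11-2 had 9.62% over all 3. It was Ighv1-81 (7.12%) in the second table. The leading kappa V gene, Igkv8-27 at a mean of 12.3%, gave way to Igkv5-39 on TPM (19.65%) and in the second table (20.45%), and to Igkv8-21 without library 3 (13.6%); without library 2 it had 18.5%. Counts of 14 V genes with 80% in 1 library were 15 at 70%, 11 at 90% and 13 in the second table, all chosen after seeing the data. No paired comparison of groups was possible because there is 1 group of samples and none to pair it with. Low counts limit most V genes: 25 of the 44 V members fell under the mean count for a test.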
